A study of Mus musculus with 3 samples.

Results

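The Egr, Nr4a and Ier immediate-early genes are described here by 10 members, taken by name and not by any measured value: Egr1, Egr2, Egr3, Nr4a1, Nr4a2, Nr4a3, Ier2, Ier3, Ier5 and Nab2. All 10 were found among the 55536 Ensembl genes of the gene tables. The material was cytosolic RNA, depleted of ribosomal RNA, from bone marrow-derived macrophages of C57BL/6J mice. All 3 libraries belonged to 1 group. Its cells had received 100 ng/ml Lipid A for 12 h, a washout of 12 h and then 100 ng/ml Lipid A for 50 min. Lipid A, the membrane anchor of bacterial lipopolysaccharide, activates Toll-like receptor 4. The labels number the libraries as biological replicates 1, 2 and 3 and give them 1 donor entry, and whether these were separate animals or cultures is not stated. The p-values therefore measure only the spread between these libraries, which may be technical. No library without Lipid A, at another time or of another fraction was analysed here. The levels below are therefore levels under this treatment and show neither induction nor repression. In such bulk samples fewer cells of a type and less RNA per cell cannot be told apart.

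Immediate-early genes are transcribed within minutes of a stimulus, from factors already in the cell, and most of their mRNAs decay quickly. Egr proteins are zinc-finger transcription factors that bind GC-rich sites, and the corepressor Nab2 binds Egr1 and Egr2 and restrains them. The 3 Nr4a genes encode orphan nuclear receptors that work without a known natural ligand, and Nr4a1 is known to dampen inflammatory transcription in macrophages. Ier2 and Ier5 are related nuclear proteins, while Ier3 resembles them in name only and is known as a survival factor. Downstream of Toll-like receptor 4, ERK and p38 kinases reach such promoters through serum response factor with its Elk partners and through CREB, and IKK reaches them through NF-kB.

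The gene tables held 47972062, 54409436 and 53491957 expected counts for replicates 1, 2 and 3, so a gene with no count could still lie anywhere below 0.0625, 0.0551 and 0.0561 CPM, the worth of 3 counts (counting error only). Protein-coding genes held 33.3%, 26.1% and 37.0% of all TPM (a transcript level per length) in replicates 1, 2 and 3. TPM was therefore used to compare genes within a library. Libraries were compared by CPM, a count per total, on library sizes normalised by TMM. A gene was called expressed where no replicate fell below a TPM of 1. All 10 macrophage markers were expressed, with summed TPM of 6454 to 8439. Of 6 neutrophil markers 3 were expressed (Csf3r, S100a8 and S100a9), with Ly6g at 0, and no T and NK cell, B cell, dendritic, mast, fibroblast, endothelial or erythroid marker was.

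Promoter sequence is shown for 4 members whose window held a motif of the factors named above, because such motifs are the known entry points of the signal. RefSeq promoter windows on GRCm38.p6 existed for 7 of the 10 members, 11 windows in all, and the 250 bases before each start were searched on both strands for 7 motifs. In the sequences below, capitals mark the CArG box of serum response factor and the CRE half-site TGACG in Egr2, the CRE-like heptamer TGCGTCA in Nr4a1, the half-site TGACG in Nr4a2, and the kappaB motif in Ier3. The Ier3 sequence stops at 221 bases, where the annotated transcript begins, and a match on the other strand appears as its reverse complement, CGTCA for TGACG. The heptamer was added to the search after the Nr4a1 window had been read.
Egr2, chr10:67537619-67537868, plus strand: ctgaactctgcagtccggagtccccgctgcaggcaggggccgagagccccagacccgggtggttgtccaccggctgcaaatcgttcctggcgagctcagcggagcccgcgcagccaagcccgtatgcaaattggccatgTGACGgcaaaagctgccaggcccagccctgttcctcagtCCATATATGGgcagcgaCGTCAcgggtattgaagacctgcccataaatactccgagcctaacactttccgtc
Nr4a1, chr15:101266596-101266845, plus strand: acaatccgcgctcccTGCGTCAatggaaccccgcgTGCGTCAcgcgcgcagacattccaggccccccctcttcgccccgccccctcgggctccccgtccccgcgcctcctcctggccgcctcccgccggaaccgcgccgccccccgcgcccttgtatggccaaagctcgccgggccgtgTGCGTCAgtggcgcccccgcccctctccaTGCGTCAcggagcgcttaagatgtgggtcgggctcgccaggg
Nr4a2, chr2:57124004-57124253, minus strand: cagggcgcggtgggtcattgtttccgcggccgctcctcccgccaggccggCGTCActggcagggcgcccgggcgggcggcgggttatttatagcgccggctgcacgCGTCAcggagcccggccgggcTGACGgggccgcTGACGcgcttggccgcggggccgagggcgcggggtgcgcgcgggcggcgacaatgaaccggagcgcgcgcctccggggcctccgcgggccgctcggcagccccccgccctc
Ier3, chr17:35821463-35821683, plus strand: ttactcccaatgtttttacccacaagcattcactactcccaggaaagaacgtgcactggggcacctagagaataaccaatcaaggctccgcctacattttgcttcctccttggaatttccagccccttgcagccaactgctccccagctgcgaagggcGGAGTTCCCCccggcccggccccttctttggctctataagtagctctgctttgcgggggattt

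The printed Egr2 window ends at the start of Egr2-201, the leading Egr2 transcript in these libraries. It held 1 CArG box, beginning 72 bases before the start, with half-sites at 111 and 55 bases. A CArG box occurred in 1.47% of all 32851 promoter windows of the same length. The Nr4a1 window held the heptamer 4 times, at 235, 215, 71 and 42 bases before the start, and 1.75% of all windows held it at least once. Each heptamer contains CGTCA and so was also counted as a half-site. The windows of Nr4a1, Nr4a2 and Nr4a3 held 4 half-sites each. The Nr4a3 window ends at 48045304, however, and the annotated gene begins inside it, at 48045153. Its half-site nearest the RefSeq start therefore lies within an annotated transcript. An Nr4a3 form that starts downstream of this window held 51.2% to 70.6% of Nr4a3 TPM in the first transcript table. In the second it held 33.8% to 70.3%, and its own promoter was not searched. At least 1 half-site occurred in 17.8% of all windows and 4 or more in 45 windows, or 0.137%. Ier3 held 1 kappaB motif, 92 bases before the RefSeq start, and the most upstream of the 5 Egr2 windows held overlapping kappaB matches at 117 and 116 bases before its own start, against 7.25% of all windows with at least 1. The full CRE, TGACGTCA, occurred in none of the members' windows and in 1.55% of all windows. The Egr motif GCGNGGGCG stood once each in the Nr4a1 and Nr4a2 windows, against 4.7% of all windows. The Nr4a motif AAAGGTCA was found in none of the members' windows, against 1.34% of all. The Ier5 and Nab2 windows held none of the 7 motifs. A match describes letters in this window and says nothing of binding in these cells.

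The mean levels of the 10 genes ran from 0.313 TPM to 256 TPM. Egr1 led, followed by Ier2, Ier3, Ier5, Egr2, Nab2, Nr4a1, Egr3, Nr4a2 and Nr4a3 in order of mean TPM. Egr1, Ier2, Ier3 and Ier5 ranked 143, 515, 546 and 801 among the 9059 expressed protein-coding genes. Egr2 ranked 2608, and Nab2, Nr4a1 and Egr3 ranked 6261, 6429 and 7557. In all, 8 of 10 members were expressed, against 41.1% of protein-coding genes and 17.2% of all Ensembl genes. The 2 that were not were Nr4a2 and Nr4a3. With TPM rescaled so that protein-coding genes make up the total, Nr4a2 reached 1 in every library (1.32 to 2.28). Nr4a3 did not (0.652 to 1.29).

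**Figure D1:**
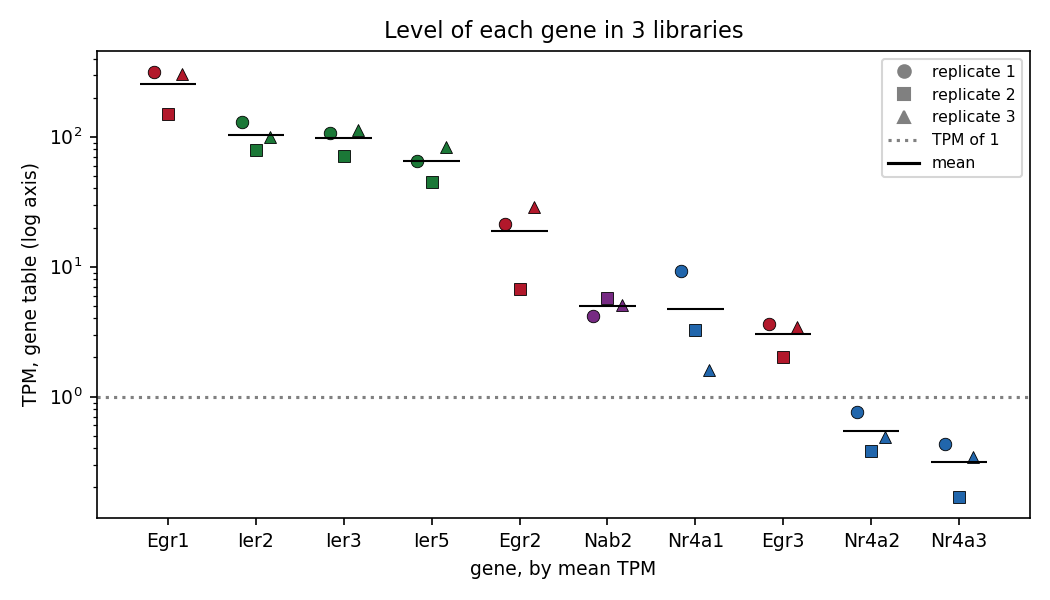
TPM of each of the 10 genes in the 3 libraries, on a log axis, ordered by mean (black line), with a dotted line at a TPM of 1. Egr1 lies highest, at 149 to 315 TPM, the 3 Ier genes lie between 45.0 and 130 TPM, and Nr4a2 and Nr4a3 lie below the line in every library.

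Egr1, which is known to act in macrophage differentiation and inflammation, lies on chromosome 18 of mm10 at positions 34859823 to 34864984. It stood at 315, 149 and 304 TPM in replicates 1, 2 and 3, a mean of 256 ± 92.9 (SD, n = 3). Replicate 2 was low and the other libraries lay close together. Egr1 alone held 48.0%, 41.1% and 47.5% of the summed TPM of the 10 genes in replicates 1, 2 and 3. Egr2 (chromosome 10, 67535475 to 67542188), also known as Krox20, had 21.3, 6.74 and 28.7 TPM, with a mean of 18.9 ± 11.2. Its low library was again replicate 2. Egr3 (chromosome 14, 70077203 to 70082614) was lower still, at 3.60, 2.01 and 3.42 TPM (3.01 ± 0.871). Within libraries Egr1 exceeded Egr2 by 3.82 ± 0.46 in log2(TPM + 1), and Egr2 exceeded Egr3 by 2.13 ± 0.70, each in 3 of 3 libraries and beyond the SD. An exact two-sided sign-flip permutation test over 3 libraries cannot give a p below 0.25, which both differences had (adjusted p = 0.27 over 12 pairs). The ranges of the 3 Egr genes did not overlap.

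Nab2 lies on chromosome 10 at 127660918 to 127668568 and encodes the corepressor that Egr1 itself is known to induce. Its level was 4.20, 5.70 and 5.05 TPM in replicates 1, 2 and 3 (4.98 ± 0.752). Its relative Nab1, a corepressor of the same Egr domain, averaged 20.1 ± 4.52 TPM. Nab2 lay below Nab1 in 3 of 3 libraries, with a log2(TPM + 1) difference of -1.80 ± 0.48, Nab2 minus Nab1. Egr1 exceeded Nab2 by 5.35 ± 0.77 on that scale. Egr2 exceeded Nab2 by 1.53 ± 1.15, but the single libraries differed widely, with 2.10 in replicate 1, 0.21 in replicate 2 and 2.29 in replicate 3. Each of these pairs had an exact permutation p of 0.25, the smallest possible. Nab2 was the only member whose counts involved reads shared between genes, with a posterior SD of 1.84 to 2.53 reads. Gm16229, annotated as antisense to Nab2, had the same posterior SDs and held 3.83, 6.42 and 2.10 counts in replicates 1, 2 and 3, which complete the Nab2 counts of 636.17, 1253.58 and 707.9 to whole numbers. The strand setting of the counting is not given in the sources used here, so reads from these overlapping genes could not be told apart. Stat6, which shares 40 exonic bases with Nab2, had a posterior SD of 0 in every library.

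Ier2 (chromosome 8, 84661331 to 84662852) stood at 130, 79.5 and 98.7 TPM in replicates 1, 2 and 3, a mean of 103 ± 25.3. Ier3 (chromosome 17, 35821684 to 35822923), whose product interacts with ERK and protein phosphatase 2A, stood at 107, 70.5 and 113 TPM (97.0 ± 23.2). Ier5 (chromosome 1, 155096361 to 155099636), known as a partner of the heat-shock factor Hsf1, stood at 64.9, 45.0 and 83.7 TPM (64.5 ± 19.3). In TPM over all features the ranges of the 3 genes overlapped. In TPM rescaled to protein-coding genes, Ier5 (173 to 226) lay below Ier2 (267 to 389) and Ier3 (270 to 323). Within libraries, Ier3 exceeded Ier5 in 3 of 3 by 0.60 ± 0.15 in log2(TPM + 1), with an exact permutation p of 0.25. Ier2 and Ier3 did not differ beyond their spread, with Ier2 higher by 0.08 ± 0.24 on that scale, in 2 of 3 libraries (exact permutation p = 0.75).

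The Nr4a receptors were the lowest family. Nr4a1, or Nur77 (chromosome 15, 101254269 to 101274795), had 9.22, 3.27 and 1.59 TPM in replicates 1, 2 and 3, a mean of 4.69 ± 4.01. The SD was nearly as large as the mean, with replicate 1 high and replicate 3 low. Nr4a2, or Nurr1 (chromosome 2, 57106830 to 57124003), had 0.76, 0.38 and 0.49 TPM (0.543 ± 0.196). Nr4a3, or Nor1 (chromosome 4, 48045153 to 48086447), had 0.43, 0.17 and 0.34 TPM (0.313 ± 0.132). Both lay far above the floor, with 109 to 166 expected counts for Nr4a2 and 86 to 158 for Nr4a3 per library. Nr4a1 exceeded Nr4a2 by 1.65 ± 0.87 in log2(TPM + 1) and Nr4a3 by 1.89 ± 0.94, in 3 of 3 libraries (exact permutation p = 0.25 for each).

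Of the 9 pairs of neighbours in the order of levels, 6 differed in the same direction in 3 of 3 libraries and beyond the SD of the difference. In 4 of them the TPM ranges of the neighbours did not overlap. These steps, in log2(TPM + 1), were Egr1 over Ier2 (1.26 ± 0.36), Ier5 over Egr2 (1.88 ± 0.60), Egr2 over Nab2 and Egr3 over Nr4a2 (1.36 ± 0.22). Each had an exact permutation p of 0.25, or 0.38 after adjustment over 9 pairs. Ier3 with Ier5 and Nr4a2 with Nr4a3 overlapped in TPM, but not in TPM of the gene table rescaled to protein-coding genes. On that scale Nr4a2 lay at 1.32 to 2.28 and Nr4a3 at 0.652 to 1.29. The other 3 pairs did not differ beyond their spread. They were Ier2 with Ier3, Nab2 with Nr4a1 (0.30 ± 1.14) and Nr4a1 with Egr3 (0.30 ± 0.98), each in the stated direction in 2 of 3 libraries with an exact permutation p of 0.75. The place of Nr4a1 relative to Nab2 and Egr3 was therefore not resolved with 3 libraries. Nab2 itself lay above Egr3 in 3 of 3 libraries, at 4.20 to 5.70 against 2.01 to 3.60 TPM. That pair was not tested.

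Between libraries, all 10 genes varied beyond counting error, in a Poisson heterogeneity chi-square with Benjamini-Hochberg adjustment over 13827 genes. That was also so for 70.4% of all genes tested. With a ratio of at least 1.5 between the highest and the lowest CPM added, 6 of 10 members passed, against 23.9% of all genes. These were Egr1, Egr2, Nr4a1, Nr4a2, Nr4a3 and Nab2. At a ratio of at least 2, only Egr2 and Nr4a1 passed, against 14% of all genes. Leaving out 1 library removed some of these calls. Without replicate 1, Nr4a2 and Nr4a3 no longer varied (adjusted p = 0.712 and 0.786, heterogeneity chi-square), and without replicate 2, Egr3 and Nab2 no longer did (0.124 and 0.119).

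Nr4a1 had the widest spread of the 10. Its CPM was 28.2, 13.9 and 4.98 in replicates 1, 2 and 3, on 1439, 754 and 252 expected counts. The highest library was 5.67 times the lowest, a ratio that 493 of the 13827 genes tested, or 3.57%, reached. The biological coefficient of variation estimates the spread between libraries left after counting error. Each gene's value was drawn towards the trend of spread with level over all genes. For Nr4a1 it was 0.503, against a trend of 0.158 at its level. The ratio was 2.80 without replicate 1 and 2.03 without replicate 3, and the gene varied beyond counting error in both cases. Malat1 and Neat1, long noncoding RNAs known to stay in the nucleus, followed the same order, with 5966, 3089 and 1426 CPM and 636, 248 and 128 CPM in replicates 1, 2 and 3. Whether nuclear RNA in the fraction had a part in the Nr4a1 values was not tested. The 3 protein-coding genes nearest to Nr4a1 in pattern were mt-Nd4, mt-Nd2 and mt-Nd1, at distances of 0.267, 0.286 and 0.296 in centred log2(CPM + 0.5) over 3 libraries. These encode subunits of respiratory complex I in the mitochondrial genome. Within double the third distance lay 9 of the 4290 genes compared. That radius depends on the third distance, so such counts cannot be compared between Nr4a1, Egr1 and Ier3.

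Egr1 and Egr2 had another pattern. Egr2 stood at 81.4, 33.3 and 108 CPM in replicates 1, 2 and 3, so replicate 2 was low, with a ratio of 3.23 that 7.96% of tested genes reached. Its coefficient of variation was 0.361, against a trend of 0.136 at its level. Without replicate 2 the ratio of Egr2 was 1.30 and that of Egr1 was 1.04. Egr1 stood at 1293, 826 and 1262 CPM, a ratio of 1.57 with a coefficient of variation of 0.208, against a trend of 0.184 at its level. The genes nearest to Egr1 were Cd83, Ppp1r10 and Nfe2l2, at distances of 0.016, 0.021 and 0.038, with 23 of 4289 genes within double the third distance. Cd83 is a surface marker of activated antigen-presenting cells, Ppp1r10 a nuclear subunit that targets protein phosphatase 1, and Nfe2l2 the NRF2 factor of the antioxidant response. Egr3 varied less, at 17.5, 13.5 and 16.3 CPM (coefficient of variation 0.147).

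**Figure D2:**
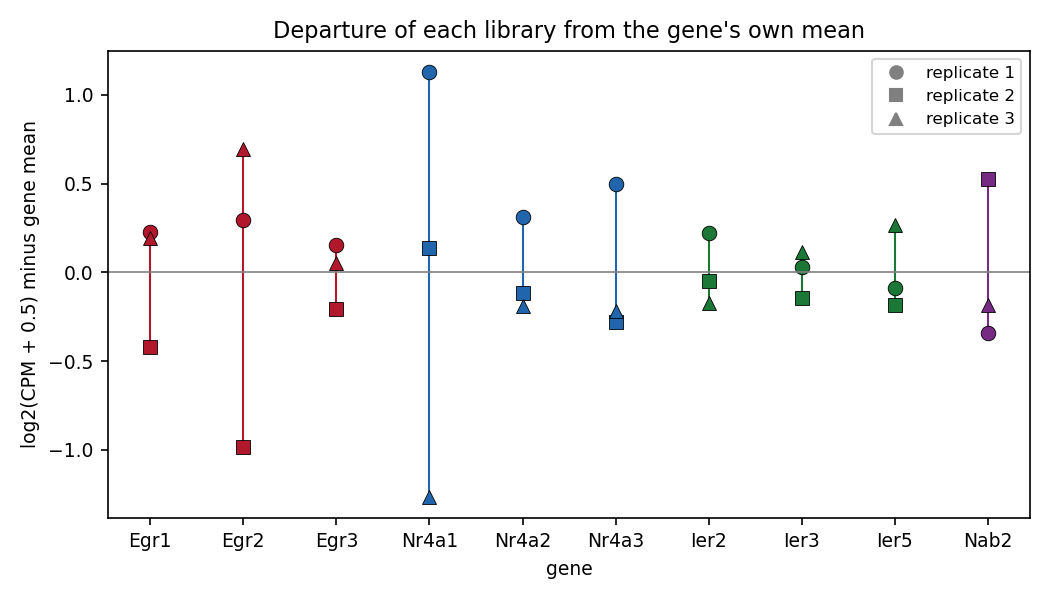
Departure of each library from the gene's own mean, in log2(CPM + 0.5), for the 10 genes. Replicate 1 is 1.13 above and replicate 3 is 1.26 below the mean for Nr4a1, replicate 2 is 0.98 below it for Egr2, and the 3 Ier genes stay within 0.27 of their means.

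The 3 Ier genes, like Egr3, spread less than the other members. Ier2 stood at 236, 195 and 180 CPM, Ier3 at 137, 121 and 145 CPM and Ier5 at 277, 259 and 354 CPM in replicates 1, 2 and 3. Their highest and lowest libraries differed by 1.31, 1.20 and 1.37 times, and their coefficients of variation were 0.152, 0.130 and 0.167. Ratios at least as large were reached by 44.7%, 62.9% and 39.1% of all genes tested. Nearest to Ier3 were Cd200r1, Tbk1 and Fnip1, at distances of 0.007, 0.014 and 0.014, but 34 of 4289 genes lay within double the third distance. Nab2 ran the other way from Egr1, at 12.5, 23.2 and 14.0 CPM, and was the only member with its highest value in replicate 2. The Nab2 ratio was 1.86, and 1.10 without replicate 2. Nr4a2 (3.26, 2.29 and 2.15 CPM) and Nr4a3 (3.10, 1.61 and 1.70 CPM) were highest in replicate 1, and their other libraries did not differ beyond counting error.

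By CPM, 6 of 10 members were highest in replicate 1, 1 in replicate 2 and 3 in replicate 3, against 29.5%, 32.4% and 38% of all genes tested. Replicate 2 was the lowest library for 6 members, against 29.2% of all genes, and for 3 of them (Egr1, Egr2 and Nr4a3) at a ratio of at least 1.5, against 9.56% of all genes. Replicate 3 was the lowest for 3 members, against 32.6%, and replicate 1 for 1 member, against 38.2%. The median coefficient of variation was 0.223 over the 10 members and 0.166 over all genes tested, and 5 members lay above the trend for their level, as 23.8% of all genes did. Without replicate 2 the medians were 0.174 over the members and 0.177 over all genes. With the count filter lowered to a mean of 1 and every library kept, they were 0.217 and 0.261. The higher median of the members thus depended on replicate 2 and on the count filter.

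**Figure D3:**
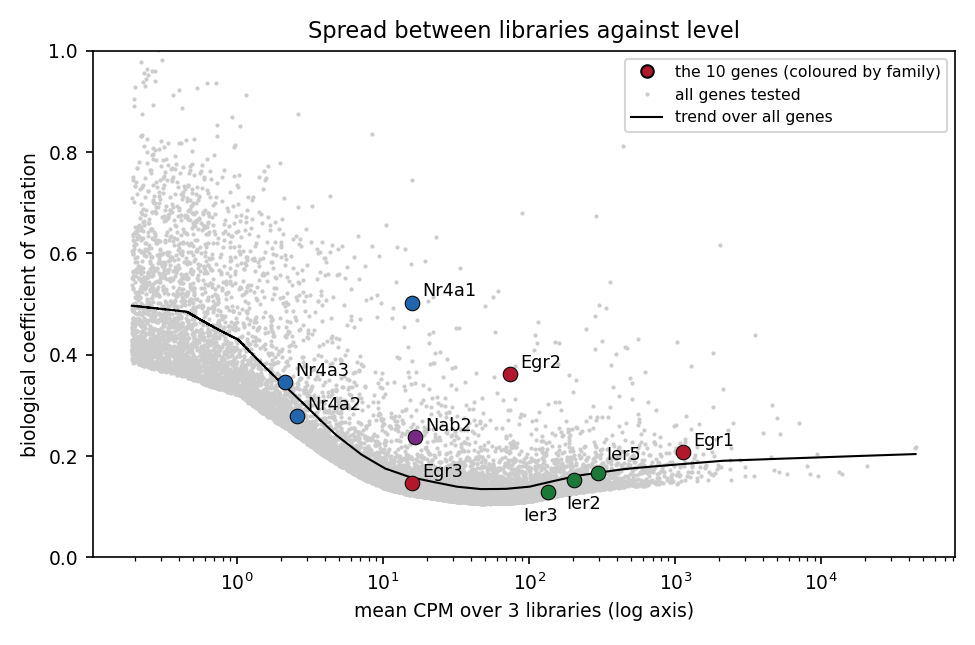
Biological coefficient of variation against mean CPM (log axis) for the 10 genes and all 13827 genes tested, with the trend over all genes as a black line; 32 genes above 1 lie outside the plot. Nr4a1 at 0.503 and Egr2 at 0.361 stand far above the line, and the 3 Ier genes and Egr3 lie on or under it.

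Of 24 other immediate-early genes, 20 were expressed. Of the 23 tested, 21 varied beyond counting error, against 70.4% of all genes, 13 of them at a ratio of at least 1.5, against 23.9%, and 10 at a ratio of at least 2, against 14%. The highest were Zfp36, which destabilises AU-rich mRNAs, at 543 ± 161 TPM, Ppp1r15a, a phosphatase subunit of the stress response, at 285 ± 138 TPM, and the AP-1 factor Junb at 248 ± 50.9 TPM. The lowest was Ccn1, which held 2 counts in replicate 1 and 0 in the others. Replicate 2 was the lowest library for 15 of the 23, against 29.2% of all genes, as for Egr1 and Egr2. Plk2, a polo-like kinase, had 633, 204 and 838 CPM in replicates 1, 2 and 3. Replicate 3 was the lowest for 5 of the 23, against 32.6% of all genes, as for Nr4a1. Of these 5, 3 were Fos family genes. Fos had 236, 161 and 96.4 CPM, Fosb had 6.28, 3.07 and 0.49 CPM, and Fosl2 had 31.6, 21.4 and 11.7 CPM. Plk2, Fos, Fosb and Fosl2 were named after their values were seen.

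**Figure D4:**
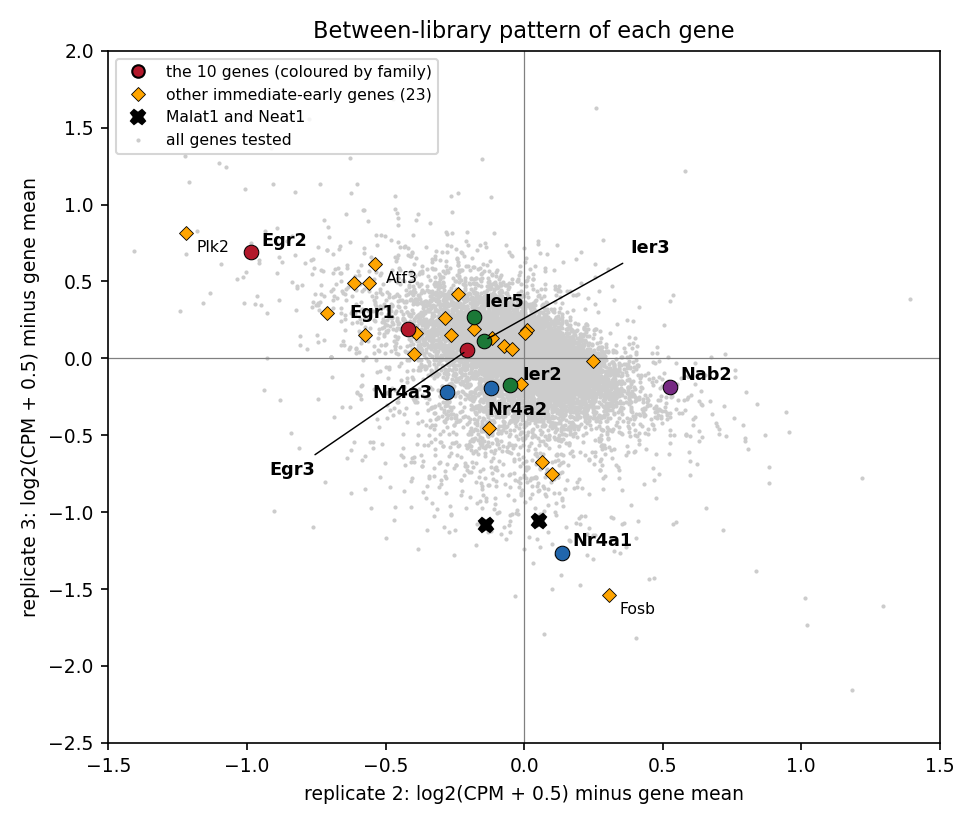
Departure from the gene's mean in log2(CPM + 0.5) in replicate 3 (vertical) against replicate 2 (horizontal) for the 10 genes, 23 other immediate-early genes, Malat1 with Neat1, and all genes tested (grey; 6 lie outside the axes). Egr2 (-0.98 and 0.69) lies at the upper left beside Plk2, while Nr4a1 (0.14 and -1.26) lies at the bottom with Fosb and near Malat1 and Neat1.

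Of the kinases and factors upstream of these genes, all 18 listed were expressed. Of these, 15 varied beyond counting error, against 70.4% of all genes, and 2 (Map2k1 and Mapkapk2) did so at a ratio of at least 1.5, against 23.9%. The highest were Mapkapk2, the kinase below p38, at 91.5 ± 31.5 TPM, Mapk3 (ERK1) at 36.3 ± 7.86 TPM and Map2k1 (MEK1) at 34.7 ± 11.7 TPM. The lowest was the ternary complex factor Elk1 at 4.83 ± 0.742 TPM. The median coefficient of variation was 0.132 for this list, 0.223 for the 10 members and 0.166 for all genes tested. Among 10 relatives and partners, 7 were expressed, against 41.1% of protein-coding genes. Of 8 tested, 7 varied, against 70.4% of all genes, and 4 did so without replicate 1, against 53.5%. The highest were Ppp2r5c, the phosphatase 2A subunit that Ier3 is known to bind, at 47.6 ± 8.16 TPM, Nab1, and Ier3ip1, named as an Ier3-interacting protein, at 17.4 ± 2.33 TPM. The fourth Egr gene, Egr4, held 5, 2 and 2 counts, near the floor, and Wt1, a zinc-finger factor with a related site, was at 0 in every library of the gene table. Of 10 reported targets of these factors, 9 were expressed, against 41.1% of protein-coding genes. All 10 varied, against 70.4% of all genes, and 7 did so at a ratio of at least 1.5, against 23.9%. Tnf stood at 1180 ± 545 TPM, Spp1 (osteopontin) at 608 ± 241 TPM and Nfkbia (IkB alpha) at 559 ± 194 TPM, and the lowest was Ltb at 0.530 ± 0.0819 TPM.

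The transcript tables divided the 10 genes into those with 1 form and those with several. Ier2, Ier3 and Ier5 have 1 annotated transcript each. Egr1 has a pair with the same 1599 coding bases. Egr1-202 held 91.5%, 90.9% and 87.3% of Egr1 TPM in replicates 1, 2 and 3, and Egr1-201, which starts 1384 bases upstream and has 1448 exonic bases of its own, held 8.48%, 9.09% and 12.7%. The second transcript table gave Egr1-202 a mean of 87.8%. Egr2-201 held 87.7%, 85.2% and 90.1% of Egr2 TPM, but a mean of 76.1 ± 12.8% in the second table. Nr4a1-201 held 96.2%, 99.1% and 96.9% of Nr4a1 TPM, so the wide spread of Nr4a1 was that of 1 transcript.

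**Figure D5:**
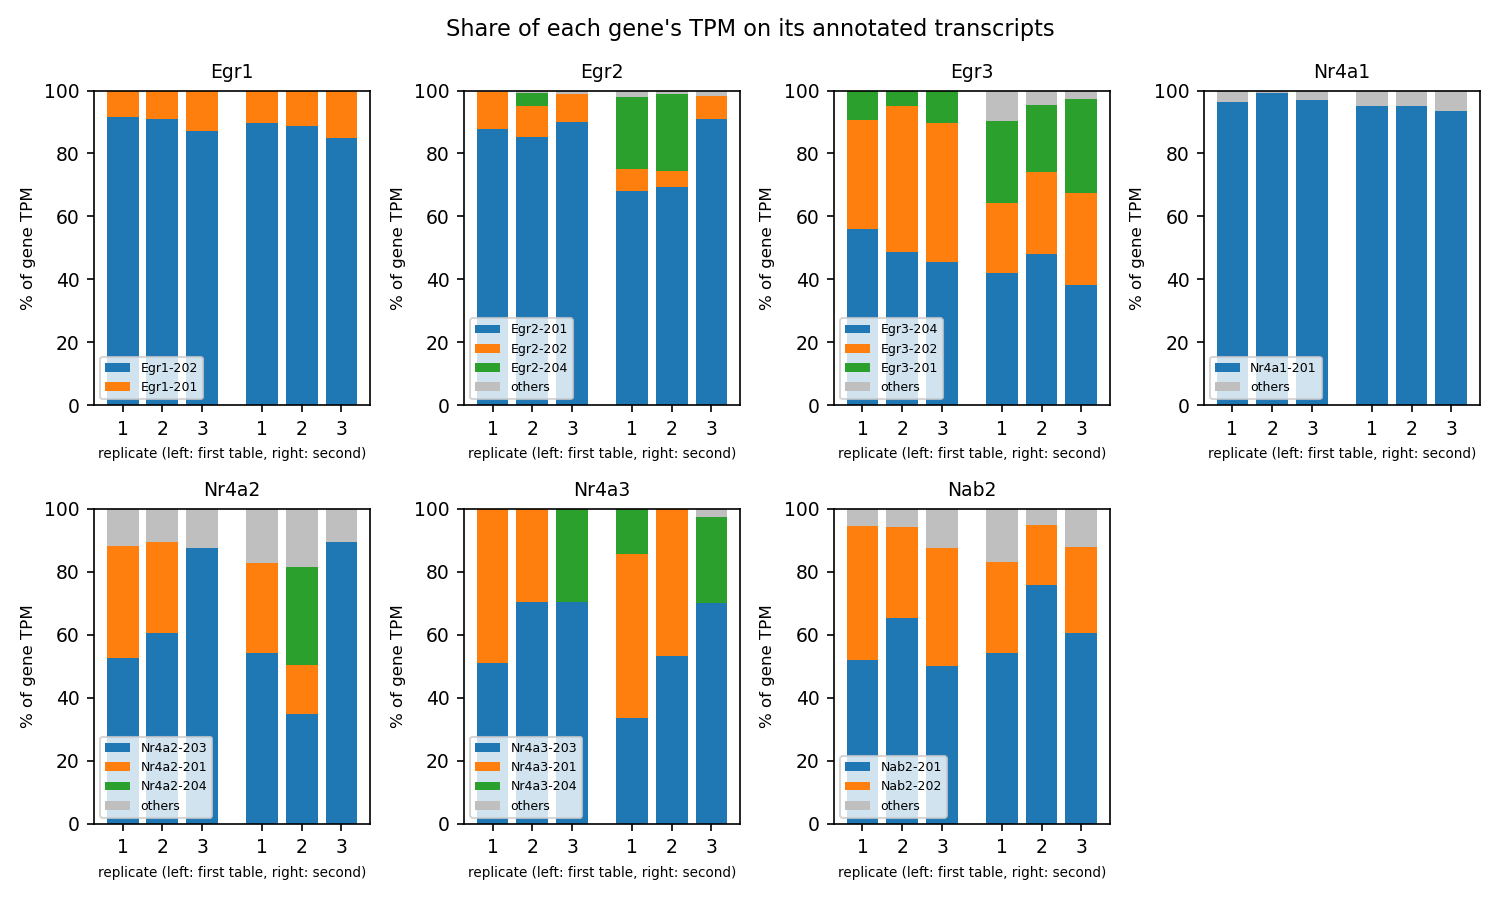
Share of each gene's TPM on its annotated transcripts, per replicate, in the first (left 3 bars) and second (right 3 bars) transcript table, for the 7 genes with more than 1 transcript. Forms at a mean of at least 10% in either table are coloured and the rest are grey. Egr1-202 and Nr4a1-201 dominate in both tables, whereas the forms of Egr3, Nr4a2 and Nr4a3 are divided differently between tables or replicates.

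Egr3 was the only member with a large share on a transcript annotated as retaining an intron. Egr3-202 held 34.4%, 46.3% and 44.2% of Egr3 TPM in the first table and 21.9%, 26.0% and 29.3% in the second. It is a single exon of 3876 bases, of which 221 lie in no other Egr3 transcript, so most of its reads could also come from the coding form Egr3-204. That form held 50.2 ± 5.39% of Egr3 TPM in the first table and a mean of 42.9% in the second. The Nab2 forms divided as 52.1%, 65.4% and 50.1% for Nab2-201 and 42.4%, 28.8% and 37.6% for Nab2-202 in replicates 1, 2 and 3, and Nab2-201 has 192 more coding bases. For Nr4a2 and Nr4a3 the shares rested on few reads and were not stable. The main coding Nr4a2 form with the upstream start held 52.6%, 60.5% and 87.8% of Nr4a2 TPM in replicates 1, 2 and 3, and a form annotated for nonsense-mediated decay, with the same start, held 3.95%, 7.89% and 12.2%. Nr4a2-201, whose start lies 8965 bases downstream, held 35.5%, 28.9% and 0%. The Nr4a3 form with the downstream start held 51.2%, 70.6% and 70.6% of Nr4a3 TPM, and Nr4a3-201, whose start lies 3961 bases upstream, held 48.8%, 29.4% and 0%. Nr4a3-204, a noncoding form that starts near Nr4a3-201, held 0%, 0% and 29.4%, on 5 counts in replicate 3.

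The second table listed lower TPM for all 10 genes, for example 171, 53.2 and 85.6 for Egr1 in replicates 1, 2 and 3, since protein-coding genes held only 9.70% to 19.6% of its TPM. After both tables were rescaled to protein-coding genes, Egr1 averaged 736 ± 169 TPM in the second table and 779 ± 191 TPM in the gene table. Over the 10 genes, the difference in log2(rescaled TPM + 1), second table minus gene table and averaged over replicates, ran from -0.10 for Ier5 to 0.28 for Egr3. Without rescaling, 6 of 10 members reached a TPM of 1 in every replicate of the second table, since Egr3 had 0.904 TPM in replicate 2 and Nr4a1 had 0.462 TPM in replicate 3.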

How the data were processed

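Cytosolic total RNA of 3 libraries of 1 group was measured, and each library came with a gene table and 2 transcript tables. The authors deposited expected counts, estimates of reads that need not be whole, without normalisation. TPM was deposited by the authors over all indexed features, and isoform shares, a percent column deposited in the first transcript table, were computed again here from TPM. The deposited posterior SD of each count, another column of the gene table, shows how far shared reads leave a count open. The assembly mm10 and GENCODE M21 are named in the submitters' processing notes. The column layouts are those of RSEM and kallisto, but which aligner, quantifier, versions and strand setting were used is not given in the sources used here.

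Entries naming no gene, at 0.0251% to 0.0785% of counts, stayed out of library sizes and tests. Rounded expected counts entered the heterogeneity test (2 degrees of freedom, mean count of at least 10, adjusted p under 0.05) and the edgeR 4.0.16 coefficients of variation. With 1 group no quasi-likelihood comparison could be made. TPM was compared as log2(TPM + 1) within libraries by exact sign-flip permutation. The heterogeneity test and the coefficients of variation, but not the permutation test, were checked on simulated data. DESeq2 1.42.0 size factors and dispersions, other filters, pseudocounts and tables, and each library left out were tried as alternatives.

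All 10 members are named whatever their values, with the 3 highest genes and the lowest of each list, and the 3 nearest patterns to Egr1, Nr4a1 and Ier3 among protein-coding genes at a mean TPM of at least 10. The members, lists and tests were chosen with earlier results of these data known. Intervals and floors cover counting error only.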

Additional observations from a re-analysis of the deposited data

How the results depend on the processing

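No paired analysis was possible because the labels give 1 group, so replicate numbers pair nothing across groups. Of 115 alternative values of the log2(TPM + 1) differences, 111 kept their direction. The 4 that did not belong to pairs already within their spread. Ier2 minus Ier3 ranged from -0.011 (without replicate 1) to 0.22 as each library was left out. Nab2 minus Nr4a1 ranged from -0.16 (without replicate 3) to 0.94. Nr4a1 minus Egr3 ranged from -0.13 (without replicate 1) to 0.83, and was -0.0097 in the second transcript table rescaled to protein-coding genes, an alternative chosen after seeing the data. The count of members varying beyond counting error was 10 under DESeq2 size factors, unadjusted totals, both other count filters and the second table's counts, and 8 to 10 as each library was left out. Of all genes tested, 45.5% (no filter on low counts) to 79.3% (second table's counts) varied under those settings, and 50.7% to 53.5% as each library was left out. The members' count was 6 with a ratio of at least 1.5, against 23.9% of all genes. With a ratio of at least 2, a threshold added after seeing the data, it was 2, against 14%. Relatives and partners varying numbered 4 to 6 of 8 tested as each library was left out, against the same 50.7% to 53.5% of all genes. Members expressed in every replicate numbered 5 at a TPM of at least 5 and 4 at a TPM of at least 10, and 6 in the second transcript table. By TPM in place of CPM, 1 member in place of 3 was lowest in replicate 3, and protein-coding genes held the smallest share of TPM in replicate 2. The members' median coefficient of variation ran from 0.174 to 0.230 over 7 alternatives. It stood below that of all genes with the count filter lowered to a mean of 1 (0.217 against 0.261) and without replicate 2 (0.174 against 0.177). Under the other alternatives it stood above that of all genes, at widest 0.230 against 0.102 with DESeq2 gene-wise dispersions. Depth limits the transcript shares of Nr4a2 and Nr4a3, genes with at most 166 expected counts per library in the gene tables.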
